A study of Mus musculus with 6 samples.

Results

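The 8 genes described here make, degrade, sense or bind oxysterols: Ch25h, Cyp27a1, Cyp7b1, Hsd3b7, Gpr183, Osbp, Osbpl1a and Osbpl5. They were chosen by symbol, and all 8 are among the 13454 genes of the deposited table, so none is absent. A filter on low values, a mean of at least 1 CPM (reads of a gene scaled to the size of its library) over the libraries, was passed by 7 of the 8, and the gene below it is Cyp7b1. RNA came from lymphatic endothelial cells of mouse melanomas grown from the transplanted line B16-OVA-VEGFC. The 3 Ch25h KO libraries, labelled LEC-Ch25h KO, came from tumours of mice with Ch25h knocked out in lymphatic cells, and their column names carry the abbreviation HE. The 3 WT libraries, labelled LEC-CH25h WT, came from tumours of littermate controls. Every library thus comes from tumours of the same transplanted line. The genotype label names lymphatic cells for the knockout, and whether other cells also lost Ch25h is not known from it. The labels used here do not give the driver of the deletion, the strain, the sex or the age of the mice, or whether the libraries of a group are separate animals, so p-values rest on a spread between libraries that could be technical.

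Oxysterols are oxidised forms of cholesterol. CH25H adds a hydroxyl group to the side chain to give 25-hydroxycholesterol, and CYP27A1, a mitochondrial P450, gives 27-hydroxycholesterol. CYP7B1 adds a hydroxyl group to the sterol ring, and together with CH25H it makes the main ligand of GPR183, a receptor that guides migrating B cells, T cells and dendritic cells. HSD3B7 acts on the ring in the next step and inactivates that ligand. In lymphoid tissue, stromal cells are known to set gradients of this ligand. OSBP and its relatives carry sterols and phosphoinositides between membranes at organelle contact sites. If another enzyme or binding protein took over when Ch25h is lost, its transcript could be higher in Ch25h KO libraries, and that is the question put to these genes.

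Promoters are shown for 4 of these genes, each standing for a role: the deleted enzyme, the most abundant ring enzyme, the receptor and the founding binding protein. Each runs from 250 bases before to 50 bases after the gene's start in RefSeq on GRCm38.p6, the assembly called mm10, and is read 5′ to 3′ on the gene's own strand. RefSeq entries were matched for 6 of the 8 members. Capitals mark matches to the motifs searched on both strands, the CRE (TGACGTCA), the E-box (CACGTG), AP-1 (TGANTCA), the GC box (GGGCGG), the TATA box (TATAAA), and the ISRE, SRE and LXR motifs.
Ch25h, minus strand, chr19:34475099-34475398: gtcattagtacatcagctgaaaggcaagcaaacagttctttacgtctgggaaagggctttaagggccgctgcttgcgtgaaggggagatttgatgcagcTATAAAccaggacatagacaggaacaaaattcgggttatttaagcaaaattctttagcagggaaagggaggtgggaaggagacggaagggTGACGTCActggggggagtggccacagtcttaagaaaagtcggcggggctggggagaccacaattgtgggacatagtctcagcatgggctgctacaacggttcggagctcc
Hsd3b7, plus strand, chr7:127800359-127800658: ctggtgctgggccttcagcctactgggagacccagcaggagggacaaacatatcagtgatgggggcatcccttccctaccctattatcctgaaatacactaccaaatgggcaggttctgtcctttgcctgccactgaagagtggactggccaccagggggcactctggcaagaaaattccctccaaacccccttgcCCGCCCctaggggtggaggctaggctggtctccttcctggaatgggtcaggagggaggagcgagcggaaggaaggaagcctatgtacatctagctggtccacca
Gpr183, minus strand, chr14:121965144-121965443: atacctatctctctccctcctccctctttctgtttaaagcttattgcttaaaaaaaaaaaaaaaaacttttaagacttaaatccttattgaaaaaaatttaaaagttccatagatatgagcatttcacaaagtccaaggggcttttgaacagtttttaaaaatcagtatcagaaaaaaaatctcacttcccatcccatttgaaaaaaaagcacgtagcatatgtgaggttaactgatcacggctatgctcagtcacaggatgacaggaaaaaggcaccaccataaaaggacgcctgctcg
Osbp, plus strand, chr19:11965594-11965893: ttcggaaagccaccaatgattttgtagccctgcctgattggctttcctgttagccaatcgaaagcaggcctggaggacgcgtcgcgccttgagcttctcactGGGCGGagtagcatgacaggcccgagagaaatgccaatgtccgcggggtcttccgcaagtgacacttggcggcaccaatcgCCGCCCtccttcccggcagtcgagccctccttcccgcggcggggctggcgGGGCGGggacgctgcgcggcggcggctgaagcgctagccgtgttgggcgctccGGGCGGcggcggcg
The Ch25h window held a CRE that starts 61 bases before the gene's start and a TATA box that starts 151 bases before it. The CRE was added to the search after this sequence had been read. Hsd3b7 held 1 GC box and Osbp held 4, on both strands, and no match was found in the Gpr183 window. Of all 32851 promoter windows in the table, 1.79% hold the CRE, 13.6% the TATA box and 35.7% the GC box. These are matches of letters and not binding sites.

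The libraries held 36556824 to 42542360 reads in Ch25h KO and 41736922 to 46165273 in WT, counted over the listed genes. Values are CPM scaled by TMM factors, which even out the composition of libraries. Differences are Ch25h KO minus WT on log2(CPM + 1), a scale that understates the change of low genes, with limma's p adjusted over the 11980 genes past the filter and a threshold of 0.05. Of those genes 0.00835% were called, a single one, and 5.41% had an unadjusted p under 0.05. The groups did not overlap in 10.2% of them. The labelled cell type was checked against its markers: 9 of 10 lymphatic markers are in the table, none at 0 in any library. They summed to 7364 to 10069 CPM in Ch25h KO and 8169 to 10617 CPM in WT. Of these 9, 2 had a higher and 7 a lower mean in Ch25h KO, with 0 called. Lyve1 gave 24.2% to 38.5% of the sums. Blood endothelium markers, mostly Plvap, summed to 1352 to 1726 CPM in Ch25h KO and 1866 to 2857 CPM in WT. The 4 mural markers in the table, mostly Kcnj8, gave 291 to 409 CPM and 175 to 428 CPM in that order. Melanoma markers gave 142 to 348 CPM and 128 to 285 CPM, with 6 of 8 means higher in Ch25h KO and 0 called. The CD45 gene Ptprc, a marker of the cells meant to be sorted out, had 0, 19.7 and 1.69 CPM in Ch25h KO libraries 1, 2 and 3, against 3.13, 0 and 0.994 CPM in WT libraries 1, 2 and 3.

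Of the enzymes that make oxysterols, Ch25h was nearly absent from the knockout libraries and Cyp27a1 was low in both groups. Ch25h lies on chromosome 19 at 34473778 to 34475164, minus strand of mm10, in a single exon. It had 0, 0.0232 and 2.95 CPM in Ch25h KO libraries 1, 2 and 3, against 82.9, 88.8 and 106 CPM in WT libraries 1, 2 and 3. Every Ch25h KO library lay far below every WT library, and the only knockout library with more than a single read was library 3, with 117 reads (exact 95% Poisson interval 96.8 to 140) or 3.18% of the WT mean. The log2 fold change was -5.87 ± 0.47 (SE, n = 3 each; limma, adjusted p = 0.00365), the single call among all genes. An exact permutation test, two-sided, gave p = 0.1, the smallest that 3 libraries against 3 allow. The limma call was lost with a pseudocount of 0.25 CPM (adjusted p = 0.0779) and without WT library 1 (adjusted p = 0.0792), and neither edgeR (adjusted p = 0.839) nor DESeq2 (adjusted p = 0.208) called the gene from recovered reads. In bulk RNA, fewer cells that carry a transcript and less of it per cell cannot be told apart, and 159 of the 1387 exon bases of Ch25h are shared with the antisense gene Gm26902, which is not among the genes analysed here.

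Cyp27a1, on chromosome 1 at 74713574 to 74737892, had 7.99, 5.13 and 2.34 CPM in Ch25h KO libraries 1, 2 and 3 and 5.45, 5.20 and 7.76 CPM in WT libraries 1, 2 and 3. The highest and the lowest value both came from the knockout group, so the groups overlapped over the whole WT range. Its log2 fold change was -0.31 with a 95% interval of -1.12 to 0.51 (limma, adjusted p = 0.973), and without Ch25h KO library 3, the lowest, it was 0.08. Macrophages also express Cyp27a1. The 11 macrophage and monocyte markers in the table summed to 250, 442 and 286 CPM in Ch25h KO libraries 1, 2 and 3 and to 586, 370 and 415 CPM in WT libraries 1, 2 and 3, with Csf1r, Emr1, Fcgr1 and Ccr2 at 0 in at least 1 library. A single marker, Mrc1, gave 202 to 330 CPM of these sums. Without it, a split made after the values were seen, the other 10 markers summed to 45.2, 141 and 84.4 CPM in Ch25h KO libraries 1, 2 and 3 and to 352, 39.6 and 199 CPM in WT libraries 1, 2 and 3. Cyp27a1 was highest in Ch25h KO library 1, where Csf1r, Fcgr1 and Ccr2 were at 0 but Cd68 had 18.9 CPM and Mrc1 205 CPM. The part of macrophages in the Cyp27a1 reads was not tested. Hsd11b1, whose enzyme can reduce 7-ketocholesterol, was the other tested gene of the making list and had a mean of 6.76 ± 4.47 CPM in Ch25h KO against 11.2 ± 6.0 CPM in WT (SD, n = 3; limma, adjusted p = 0.973). The brain cholesterol hydroxylase gene Cyp46a1, the side-chain cleavage gene Cyp11a1, Cyp3a11, Cyp3a13 and Cyp1b1 are not among the genes analysed here.

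**Figure D1:**
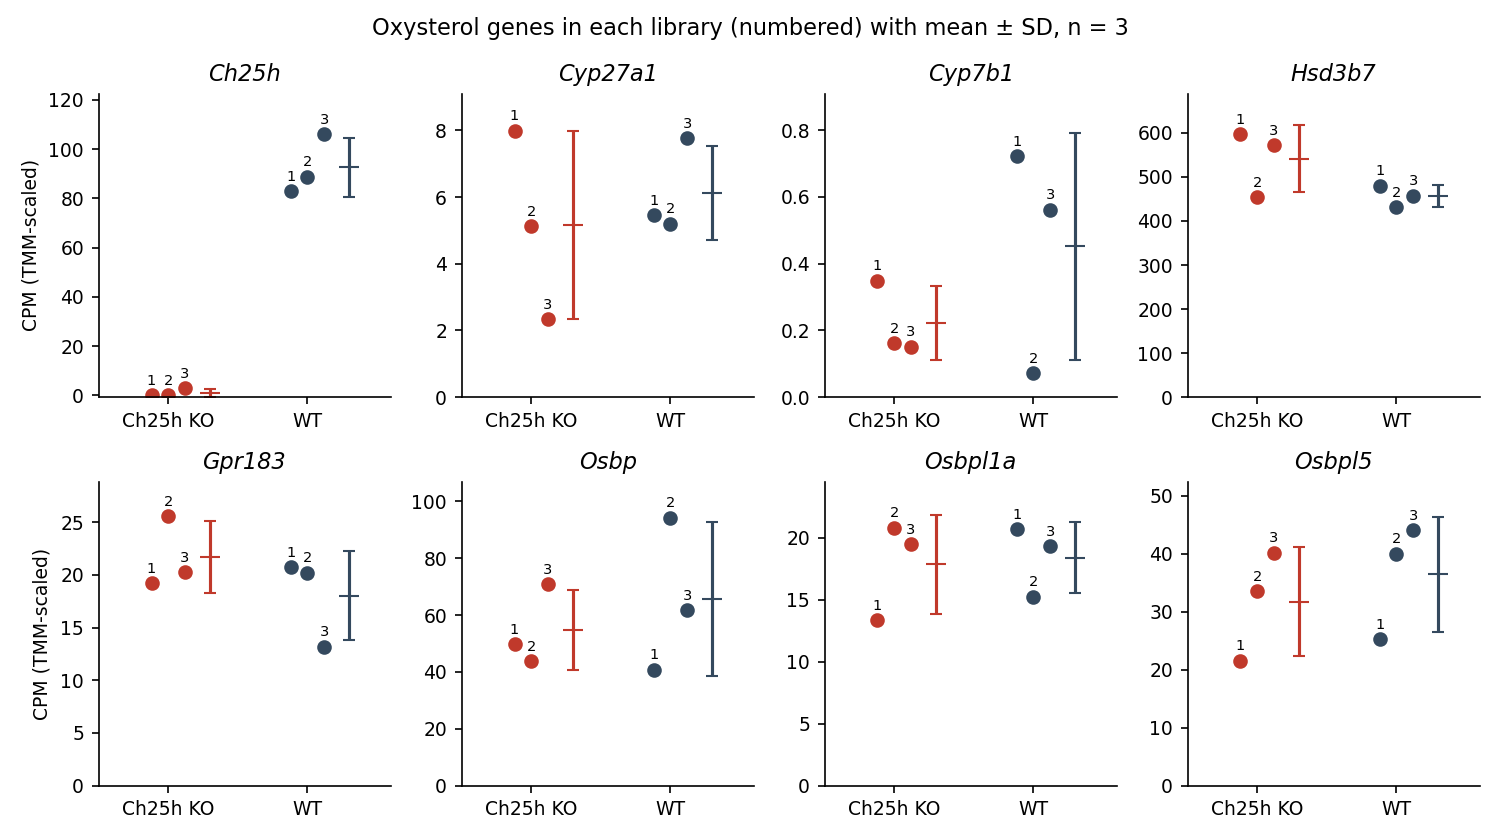
CPM of each of the 8 genes in every library (points, numbered by library; Ch25h KO left, WT right) with the mean and SD of each group (n = 3). Ch25h separates the groups with 0 to 2.95 CPM in Ch25h KO and 82.9 to 106 CPM in WT, while the groups overlap in the other 7 genes.

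The genes that degrade oxysterols stood at opposite ends: Cyp7b1 was near the limit of detection and Hsd3b7 was the most abundant of the 8 genes. Cyp7b1, on chromosome 3 at 18071950 to 18243338, was supported by 13, 7 and 6 reads in Ch25h KO libraries 1, 2 and 3, against 33, 3 and 26 reads in WT libraries 1, 2 and 3. In CPM this was 0.349, 0.162 and 0.151 in Ch25h KO and 0.723, 0.0715 and 0.562 in WT. WT library 2 held the fewest reads of all, at the 3 reads that a count of 0 allows, so the groups overlapped. With a mean of 0.221 ± 0.111 CPM in Ch25h KO against 0.452 ± 0.339 CPM in WT (SD, n = 3), the gene was below the filter and was not tested with the others. When the filter was dropped its log2 fold change was -0.23 (limma, adjusted p = 0.972). Fibroblast markers, 7 of 8 in the table and with Fap at 0 in WT library 2, summed to 79.1, 152 and 206 CPM in Ch25h KO libraries 1, 2 and 3 and to 365, 68.9 and 265 CPM in WT libraries 1, 2 and 3. Of these sums Dcn gave 43.8 to 127 CPM and Col3a1, the most abundant marker by mean, 5.77 to 169 CPM. In WT the library lowest in that sum was also the lowest in Cyp7b1, which was not so in Ch25h KO, and the part of such cells in these reads was not tested. The transcript of the enzyme that completes the GPR183 ligand was thus barely measured in these cells in either group.

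Hsd3b7, on chromosome 7 at 127800604 to 127803802, had 597, 454 and 572 CPM in Ch25h KO libraries 1, 2 and 3, against 481, 431 and 458 CPM in WT libraries 1, 2 and 3. Ch25h KO libraries 1 and 3 lay above all WT libraries, and Ch25h KO library 2 lay between them. The means were 541 ± 76.3 CPM in Ch25h KO against 456 ± 24.8 CPM in WT (SD, n = 3). Its log2 fold change of 0.24 ± 0.15 (SE) did not pass (limma, adjusted p = 0.969; exact permutation p = 0.3). Its 95% interval, -0.10 to 0.57, reaches from 0.935-fold to 1.48-fold. Without Ch25h KO library 2 the value was 0.36 (limma, adjusted p = 0.86). Of its 2769 annotated exon bases, 1729 are shared with 9430064I24Rik on the other strand and 1717 with Gm49388 on the same strand. Neither partner is among the genes analysed here, and the kit does not mark strand, so reads of these stretches cannot be assigned to Hsd3b7 alone.

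The list of oxysterol breakdown, conjugation and storage, which includes Hsd3b7 and Cyp7b1, gave no call. Of its 20 genes 12 were in the table and 10 were tested, 4 with a higher and 6 with a lower mean in Ch25h KO. Without Hsd3b7, 9 were tested, 3 higher and 6 lower. The median log2 fold change of the 10 was -0.09, against 0.00 over all genes tested. Cyp8b1, which encodes the sterol 12-alpha-hydroxylase of bile acid synthesis, had the smallest p and had a mean of 7.86 ± 3.96 CPM in Ch25h KO against 13.1 ± 4.67 CPM in WT (SD, n = 3; limma, adjusted p = 0.941). Scp2, whose product binds sterols in peroxisomes, was the single one of the 10 without overlap between the groups, against 10.2% of all genes. It had 41.5, 42.3 and 34.5 CPM in Ch25h KO libraries 1, 2 and 3 and 33.6, 33.5 and 32.9 CPM in WT libraries 1, 2 and 3 (limma, adjusted p = 0.973). Cyp39a1, a 7-alpha-hydroxylase gene for 24-hydroxycholesterol, was easily measured, at 18.3, 20.0 and 18.5 CPM in Ch25h KO and 13.6, 23.2 and 20.4 CPM in WT. The liver enzyme genes Cyp7a1 and Akr1d1 are not among the genes analysed here.

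Gpr183, the receptor, was present in every library. It lies on chromosome 14 at 121952551 to 121965195 and had 19.2, 25.6 and 20.2 CPM in Ch25h KO libraries 1, 2 and 3, against 20.7, 20.2 and 13.2 CPM in WT libraries 1, 2 and 3. The groups overlapped, with Ch25h KO library 2 the highest and WT library 3 the lowest. The means of 21.7 ± 3.42 CPM in Ch25h KO against 18 ± 4.21 CPM in WT (SD, n = 3) gave a log2 fold change of 0.27 with a 95% interval of -0.23 to 0.77 (limma, adjusted p = 0.973). With 1 library left out it ran from 0.07, without WT library 3, to 0.38, without WT library 1. Without Ch25h KO library 2, the highest, it was 0.15. With libraries weighted by how closely they follow the fit it was 0.59, with an unadjusted limma p of 0.0162 from the fit across all genes and an adjusted p of 0.222. In that weighted fit 16.2% of all genes had an unadjusted p under 0.05, and Gpr183 was the single one of the 6 tested members other than Ch25h that did. B cells and dendritic cells are known for this receptor, so leukocyte markers are given beside it. The 5 pan-leukocyte markers summed to 7.97, 113 and 11.1 CPM in Ch25h KO libraries 1, 2 and 3 and to 32.3, 4.63 and 25.6 CPM in WT libraries 1, 2 and 3. The 2 lymphocyte markers in the table, the B cell receptor genes Cd79a and Cd79b, summed to 27.5 CPM in Ch25h KO library 2 and to at most 0.627 CPM in the other libraries. The library highest in both sums was also the highest in Gpr183, and WT library 2, the lowest in pan-leukocyte markers and with Ptprc at 0, had 20.2 CPM of it. The part of leukocytes in the Gpr183 reads was not tested. The dendritic cell list had 3 of 6 markers in the table, with Xcr1 at 0 in WT library 2, and summed to 55.7 to 74.0 CPM in Ch25h KO and 50.6 to 68.7 CPM in WT. Zbtb46 alone gave 40.6 to 64.9 CPM of that sum, and Clec9a and Xcr1 together gave 7.17 to 9.15 CPM in Ch25h KO and 6.58 to 9.98 CPM in WT.

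Other proteins that bind oxysterols as receptors or sensors included 10 tested genes besides Gpr183, and none was called. Esr1, the oestrogen receptor gene whose product 27-hydroxycholesterol can bind, was the single one of these 10 with an unadjusted limma p under 0.05. It was also the single one of the 50 genes tested outside the 8 over all lists, a share of the 50 below the 5.41% of all genes. It had 7.43, 14.6 and 10.9 CPM in Ch25h KO libraries 1, 2 and 3, against 2.26, 3.39 and 8.08 CPM in WT libraries 1, 2 and 3. WT library 3 lay above Ch25h KO library 1, so the groups overlapped. Its log2 fold change was 1.20 ± 0.39 (SE), with an unadjusted limma p of 0.0126 from the fit across all genes and an adjusted p of 0.836. Smo, the Hedgehog transducer that oxysterols can activate, was the single one of the 10 without overlap between the groups, against 10.2% of all genes. Its mean was 40.8 ± 6.18 CPM in Ch25h KO against 52.4 ± 6.07 CPM in WT (SD, n = 3; limma, adjusted p = 0.941). Insig1, which encodes an endoplasmic reticulum protein that binds 25-hydroxycholesterol and holds back the SREBP pathway, had a mean of 90.5 ± 20.6 CPM in Ch25h KO against 74.4 ± 18.7 CPM in WT (SD, n = 3; limma, adjusted p = 0.973).

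**Figure D2:**
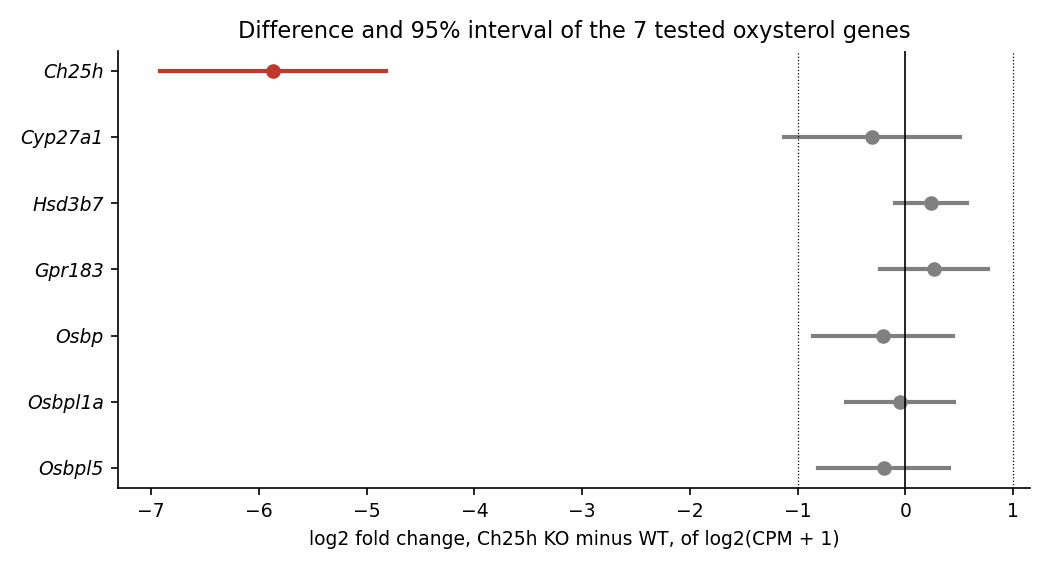
Log2 fold change (points) and 95% interval (lines) of the 7 tested genes from limma, Ch25h KO minus WT on log2(CPM + 1); dotted lines mark a change of 2-fold. Ch25h lies at -5.87, and the intervals of the other 6 genes all include 0 and end below a 2-fold rise.

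None of the 3 binding proteins among the 8 genes passed the test, and each overlapped between the groups. Osbp, which exchanges cholesterol for a phosphoinositide between the endoplasmic reticulum and the Golgi and binds 25-hydroxycholesterol, lies on chromosome 19 at 11965941 to 11994112. It had 49.7, 43.8 and 70.8 CPM in Ch25h KO libraries 1, 2 and 3 and 40.8, 94.3 and 61.7 CPM in WT libraries 1, 2 and 3. Both the lowest and the highest value came from WT. The log2 fold change was -0.21 with a 95% interval of -0.85 to 0.44 (limma, adjusted p = 0.978), and it turned to 0.09 without WT library 2.

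Osbpl1a, whose product is found on late endosomes and binds sterols, had 13.3, 20.8 and 19.5 CPM in Ch25h KO libraries 1, 2 and 3, against 20.7, 15.2 and 19.3 CPM in WT libraries 1, 2 and 3. The lowest library was Ch25h KO library 1, and the groups covered almost the same range. Its difference was the smallest of the 7 tested genes, -0.05 with a 95% interval of -0.55 to 0.45 (limma, adjusted p = 0.989), and it turned to 0.13 without Ch25h KO library 1 and to 0.03 without WT library 1. Of the 7787 exon bases of Osbpl1a, 855 are shared with a gene on the other strand that is not among the genes analysed here.

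Osbpl5, which moves phosphatidylserine and phosphoinositides at contacts of the endoplasmic reticulum with the plasma membrane, lies on chromosome 7 at 143688762 to 143756985. It had 21.5, 33.5 and 40.2 CPM in Ch25h KO libraries 1, 2 and 3, against 25.2, 40.0 and 44.1 CPM in WT libraries 1, 2 and 3. The log2 fold change was -0.20 with a 95% interval of -0.81 to 0.41 (limma, adjusted p = 0.978). In each group library 1 was lowest, and without Ch25h KO library 1 the value turned to 0.05.

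**Figure D3:**
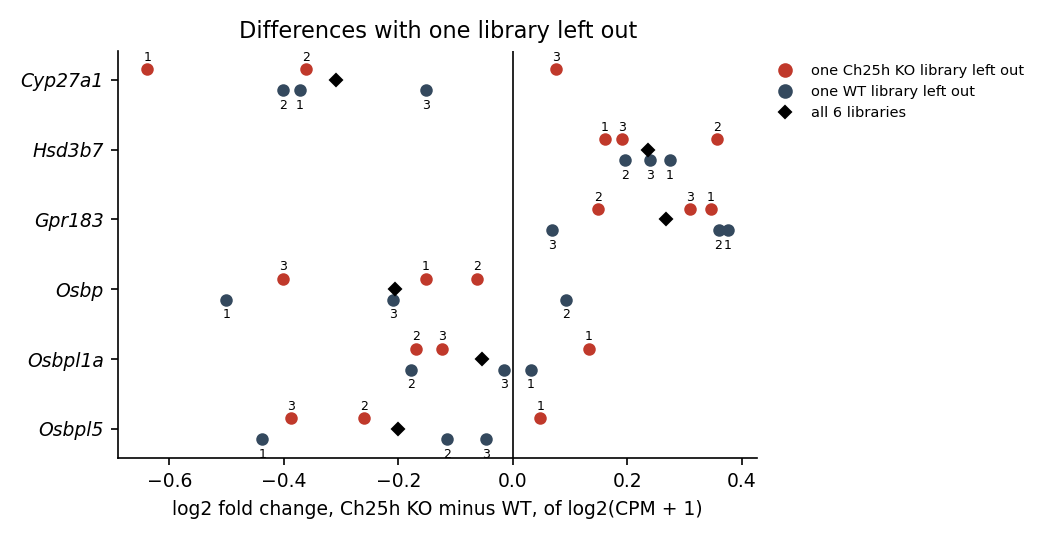
Log2 fold change (Ch25h KO minus WT on log2(CPM + 1)) of the 6 tested genes other than Ch25h with all 6 libraries (diamonds) and with 1 library left out (points, numbered by the library). Hsd3b7 and Gpr183 stay above 0 in all 6 settings that leave out a library, and Cyp27a1, Osbp, Osbpl1a and Osbpl5 each cross 0 in at least 1 of them.

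Across the whole oxysterol-binding protein family all 12 genes were in the table and 11 were tested. Of these 9 had a lower and 2 a higher mean in Ch25h KO, with a median log2 fold change of -0.16 against 0.00 over all genes tested, and none was called. Osbpl2 was the single family gene without overlap between the groups, a share of the 11 close to the 10.2% of all genes, with 49.3, 48.2 and 51.1 CPM in Ch25h KO libraries 1, 2 and 3 and 52.2, 66.1 and 63.1 CPM in WT libraries 1, 2 and 3 (limma, adjusted p = 0.941). Osbpl6 had the smallest p of the family, at 0.875 ± 0.524 CPM in Ch25h KO against 2.08 ± 0.796 CPM in WT (SD, n = 3; limma, adjusted p = 0.941). Osbpl11 had a mean of 41.5 ± 4.39 CPM in Ch25h KO against 50.3 ± 8.12 CPM in WT (SD, n = 3; limma, adjusted p = 0.973).

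Levels of different genes were compared per length, as CPM per kilobase of annotated exon. By that measure Osbpl9 was the highest of the family, at 28.8 ± 1.87 in Ch25h KO and 30.2 ± 8.78 in WT (SD, n = 3). With the longest transcript as the length its mean over the 6 libraries was 65.9 CPM per kilobase, against 29.5 with all exons, and it stayed the highest. Of its exon bases 633 of 7006 are shared with Nrd1 on the other strand, itself listed at 132 to 157 CPM in Ch25h KO and 110 to 160 CPM in WT. Osbp and Osbpl2 followed at 12.2 ± 3.16 and 11.8 ± 0.355 in Ch25h KO and at 14.6 ± 6.0 and 14.4 ± 1.75 in WT, and these 2 did not differ beyond their spread. With the longest transcript Osbpl2 stood above Osbp, with means of 19.6 and 13.4 over the 6 libraries. Next came Osbpl11 at 8.16 ± 0.863 in Ch25h KO and 9.87 ± 1.59 in WT, then Osbpl5 at 6.46 ± 1.92 and 7.41 ± 2.02 in the same order of groups. The ranges over all libraries overlapped between Osbpl9 and Osbp and between Osbpl11 and Osbpl5, although the first of each pair was higher within every one of the 6 libraries. A step down, Osbpl8, Osbpl1a, Osbpl7, Osbpl10 and Osbpl3 had means of 1.48 to 3.28 over the 6 libraries, and each overlapped its neighbour in the order. Osbpl6 and Osbp2 were at 0.147 and 0.0886, and Osbp2 did not pass the filter. Summed over the 12 genes, the family stood at 72.2, 80.3 and 85.2 CPM per kilobase in Ch25h KO libraries 1, 2 and 3 and at 66.3, 105 and 94.0 in WT libraries 1, 2 and 3. The 2 ends of this range were both WT libraries.

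**Figure D4:**
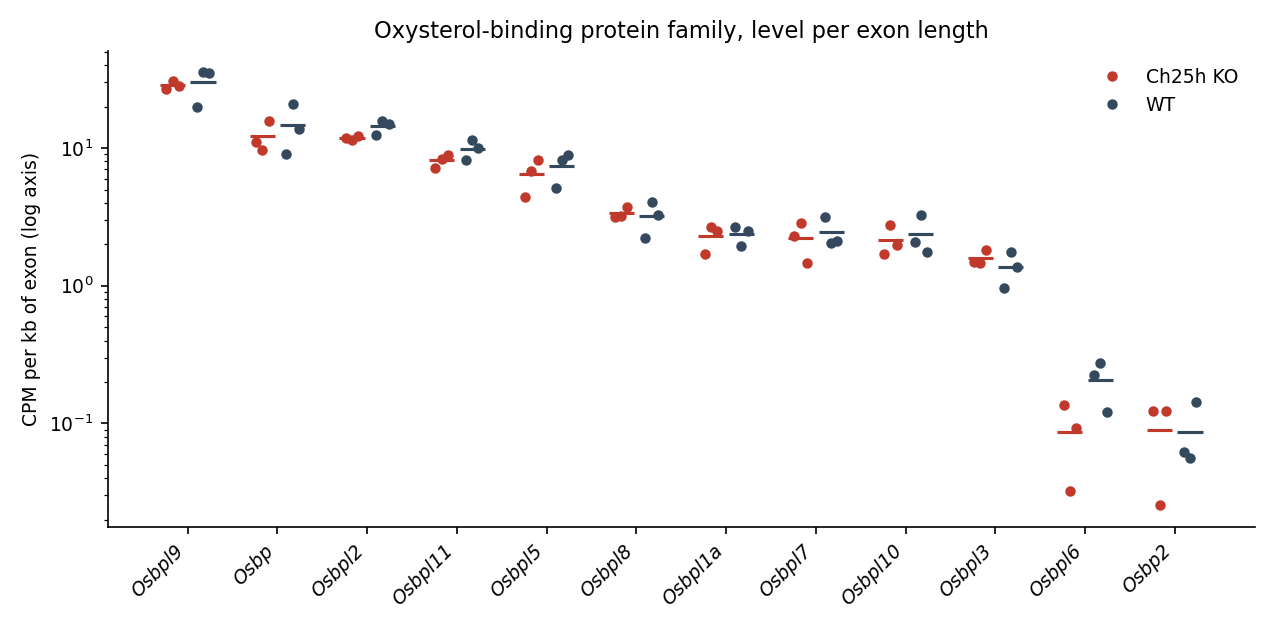
Level of the 12 oxysterol-binding protein family genes in CPM per kilobase of exon on a log axis, per library (points) with group means (lines), Ch25h KO left of WT for each gene, ordered by the mean over all libraries. Osbpl9 is highest at 28.8 in Ch25h KO and 30.2 in WT, and Osbp2 is lowest.

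Ranked in the same way, the order of the 8 genes changed mainly through the loss of Ch25h. In Ch25h KO, Hsd3b7 led with 195 ± 27.6 CPM per kilobase (SD, n = 3), followed by Osbp at 12.2, Gpr183 at 7.51, Osbpl5 at 6.46, Cyp27a1 at 2.37, Osbpl1a at 2.29, Ch25h at 0.714 and Cyp7b1 at 0.102. In WT, Hsd3b7 led with 165 ± 8.95 and Ch25h was next at 66.8 ± 8.71 (SD, n = 3), 4.57 times the level of Osbp. Osbpl5 at 7.41, Gpr183 at 6.25, Cyp27a1 at 2.82, Osbpl1a at 2.36 and Cyp7b1 at 0.209 completed the order in WT. Gpr183 and Osbpl5 overlapped in both groups, and so did Cyp27a1 and Osbpl1a. In Ch25h KO the low values of Ch25h also overlapped those of its neighbours in the order, Osbpl1a and Cyp7b1. In WT the level of Hsd3b7 was 2.47 times that of Ch25h, the next gene.

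Genes around these pathways showed no call either. Enzymes of the fatty acid hydroxylase superfamily, to which CH25H belongs, had 3 tested members, all with a higher mean in Ch25h KO and all overlapping. Msmo1, listed under its older symbol Sc4mol, encodes a methylsterol oxidase of cholesterol synthesis and had 153, 163 and 245 CPM in Ch25h KO libraries 1, 2 and 3 and 140, 163 and 116 CPM in WT libraries 1, 2 and 3 (limma, adjusted p = 0.941). The sterol desaturase gene Sc5d had a mean of 92.8 ± 19.9 CPM in Ch25h KO against 74.3 ± 13.0 CPM in WT, and Agmo, an ether lipid oxygenase gene, 1.52 ± 0.577 and 0.905 ± 0.185 CPM in the same order (SD, n = 3). In both Msmo1 and Sc5d the highest value came from Ch25h KO library 3 and the lowest from WT library 3.

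Cofactors and cholesterol carriers that serve these enzymes had 7 tested genes, 2 with a higher and 5 with a lower mean in Ch25h KO. Fdxr, which encodes the ferredoxin reductase that feeds electrons to mitochondrial P450 enzymes, was the single one of the 7 without overlap, against 10.2% of all genes. It had 14.7, 16.2 and 14.2 CPM in Ch25h KO libraries 1, 2 and 3 and 21.8, 17.9 and 19.3 CPM in WT libraries 1, 2 and 3. Its log2 fold change was -0.36 ± 0.18 (SE; limma, adjusted p = 0.941). Star, which delivers cholesterol to mitochondria, had a mean of 1.20 ± 1.08 CPM in Ch25h KO against 2.02 ± 0.764 CPM in WT, and the P450 reductase gene Por 88.9 ± 11.9 and 97.1 ± 6.34 CPM in that order (SD, n = 3).

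Contact-site partners of the binding proteins had 12 tested genes, 4 higher and 8 lower. The 3 without overlap, against 10.2% of all genes, were Vapa, Plekha3 and Arf1, of which Vapa and Plekha3 are named after their values were seen. Arf1, a Golgi GTPase gene, had a mean of 539 ± 31.5 CPM in Ch25h KO against 468 ± 21.1 CPM in WT (SD, n = 3; limma, adjusted p = 0.969). Vapb, one of the endoplasmic reticulum anchors of OSBP, had a mean of 59.8 ± 13.5 CPM in Ch25h KO against 72.4 ± 8.02 CPM in WT, and the sterol transfer gene Gramd1c 0.615 ± 0.539 and 1.88 ± 1.14 CPM in that order (SD, n = 3).

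**Figure D5:**
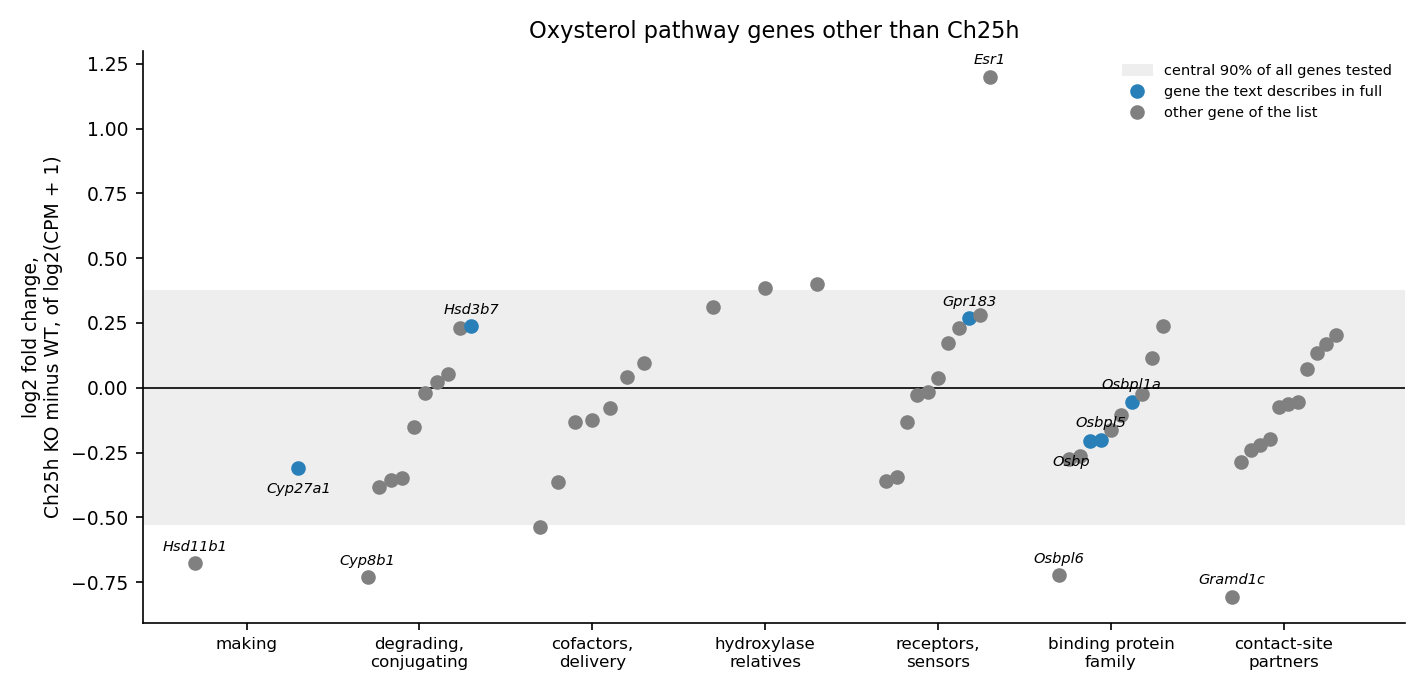
Log2 fold change (Ch25h KO minus WT on log2(CPM + 1)) of the tested genes of 7 lists, with Ch25h left out; the grey band holds the central 90% of all 11980 genes tested, -0.53 to 0.37. Most genes lie within the band, Esr1 is highest at 1.20 and Gramd1c lowest at -0.81, and none of them passed the threshold.

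Put together as counts, 0 of the 6 tested members other than Ch25h were called in limma and 0 had an unadjusted limma p under 0.05. Over all genes these shares were 0.00835% and 5.41%, so 0 of 6 does not set these genes apart from others. On recovered reads edgeR and DESeq2 called 0 of the 6 as well, but over all 11980 genes edgeR called 0 and DESeq2 called 11. The groups overlapped in all 6, against non-overlap in 10.2% of all genes. Over these 6 genes 2 means were higher and 4 lower in Ch25h KO, with a median log2 fold change of -0.13. Turned back from log2(CPM + 1) to CPM at the WT level of each gene, the upper ends of their 95% intervals lay between 1.34-fold and 1.74-fold. In this fit without library weights, a 2-fold rise of any of them thus lay outside its interval, and each interval also included 0 on the log2 scale. Such bounds are not given for the alternatives to the fit, of which library weights put Gpr183 at 0.59, against 0.27. Of 70 further genes listed for these pathways 53 were in the table and 50 were tested, with 0 called in limma, edgeR or DESeq2. Among these 50, 7 had no overlap between the groups, against 10.2% of all genes. On the same CPM scale the upper end of the interval was below 2-fold in 47 of the 50, and the other 3 were Agmo, Esr1 and Rora, the last named after its values were seen. For Cyp7b1 no such bound is given, since its counts are too low.

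The genes whose values over the 6 libraries were most like those of Ch25h were Vcam1, Ido1 and Ccl19, none of them an oxysterol gene. Likeness was the root mean square difference in log2(CPM + 1) after each gene's own mean was subtracted, and it was 1.96, 2.11 and 2.17 for these genes, where Ch25h's own deviations have a root mean square of 3.01. Values were not scaled to a common spread, so the measure favours genes with a large fall in Ch25h KO. The log2 fold changes of the 3 genes were -2.46, -2.30 and -2.41, and shared control with Ch25h was not tested. Vcam1, which encodes an adhesion molecule for leukocytes, had 1.48, 2.81 and 1.03 CPM in Ch25h KO libraries 1, 2 and 3 and 7.12, 13.1 and 27.0 CPM in WT libraries 1, 2 and 3. Ido1, a tryptophan-degrading enzyme gene, had 0.429, 1.6 and 0.479 CPM in Ch25h KO and 4.93, 2.88 and 27.5 CPM in WT. The chemokine gene Ccl19 had 2.25, 4.13 and 0.580 CPM in Ch25h KO and 14.7, 5.51 and 37.4 CPM in WT. None of the 3 was called, each with an adjusted limma p of 0.836. WT library 3 was highest in all 3 genes and in Ch25h, whereas Ch25h KO library 3, which held the residual Ch25h reads, was not the highest knockout library in any of the 3.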

How the data were processed

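Per the labels' protocols, tumours were digested, CD31- and GP38-positive cells without CD45 were sorted, and SMART-Seq v4 cDNA, which does not mark strand, went into Nextera XT libraries. The deposited table holds a normalized signal on the CPM scale for 13454 genes in 6 libraries. The submitters' processing notes name mm10, STAR 2.7.0, HTSeq 0.9.1 and edgeR 3.26.8. The roles of these tools, the annotation and the filter are not stated there. All values (100%) were whole multiples of the smallest value above 0, within 0.01 of a read, so reads were recovered, and TMM factors computed from them matched those implied by the columns (0.967 to 1.02). A read was worth 0.0216 to 0.0268 CPM, and 3 reads, the limit a count of 0 allows, 0.0648 to 0.0805 CPM. Intervals on reads cover counting error only, since the reads carry no molecular identifiers.

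With limma 3.58.1 (R 4.3.3), the 11980 genes averaging 1 CPM or more over the libraries were fitted on log2(CPM + 1) by genotype alone, using a trended variance prior and Benjamini-Hochberg adjustment. The alternatives changed the pseudocount, the filter, the scaling or the prior, weighted the libraries, added a replicate block, left out each library, or used edgeR 4.0.16 or DESeq2 1.42.0 on the recovered reads. The procedure was tested on simulated data. Gene positions and exon lengths are from GENCODE release M21 on mm10, and older symbols were resolved through RefSeq. Named are the 8 members, the family, of each list the genes called or else the 3 of smallest p, and the 3 genes most like Ch25h. One gene this rule names is not reported here. Others are named after their values were seen. The members and lists were chosen with earlier results of these data known.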

Additional observations from a re-analysis of the deposited data

How the results depend on the processing

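In the 18 alternatives to the test, 0 of the 6 tested members other than Ch25h and 0 of the pathway genes were called in each. Over all genes, 1 was called; 0 were called with a pseudocount of 0.25 CPM and in edgeR, 11 in DESeq2, and 0 to 2 when 1 library was left out (0 without WT library 1 and 2 without WT library 2). Ch25h stayed below 0 in all 18, and 14 made the call, with adjusted p from 9.75e-06 to 0.839. The 4 that did not were a pseudocount of 0.25 CPM (log2 fold change -7.26), edgeR (-6.54), DESeq2 (-6.54) and leaving out WT library 1 (-5.94, adjusted p = 0.0792), and over the settings that leave out a library it ran from -6.52 to -5.53. Differences that changed sign with a library left out ran from -0.64 to 0.075 for Cyp27a1, -0.50 to 0.094 for Osbp, -0.18 to 0.13 for Osbpl1a and -0.44 to 0.048 for Osbpl5, and library weights gave 0.0065 for Osbpl1a. Library weights also moved Gpr183 to 0.59, against 0.27, and gave an unadjusted p under 0.05 to 1 of the 6 members, 9 of the 50 pathway genes and 1945 of all 11980 genes, against 0, 1 and 648 without weights. The cause was not tested. With the longest transcript as the length, the mean level over the libraries was 218 CPM per kilobase for Hsd3b7, against 180 with all exons, and 4.58 for Osbpl1a, against 2.33, which then stood above Cyp27a1 at 2.98; among other family genes Osbpl9, Osbpl10, Osbpl7 and Osbp2 moved by 1.55 to 2.24 times.

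Deviations of same-numbered libraries had correlations of 0.24, -0.06 and -0.10 for numbers 1, 2 and 3, across genes. Between differently numbered libraries they ran from -0.16 to 0.27. With 3 libraries a group, these values cannot settle whether the numbers pair them. With the replicate block 1 gene was called, Ch25h (log2 fold change -5.87, adjusted p = 0.032), and the other calls did not change. The block gave an unadjusted limma p under 0.05 to 850 of all 11980 genes, against 648 without it. For Hsd3b7 the unadjusted limma p was 0.0789 with the block (adjusted p = 0.683) and 0.144 without it. Cyp7b1, with 3 to 33 reads a library, was too shallow for a statement on a difference.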
